A study of Mus musculus with 11 samples.

Results

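Aminoacyl-tRNA synthetases were followed in the gastrocnemius muscle of mice in which Raptor, or both Raptor and mTOR, had been deleted from muscle fibres. The genes were chosen by symbol, with earlier results of these data known. They are all protein-coding genes with a synthetase symbol for an amino acid letter, with Farsa, Farsb and Eprs. The symbols run from Aars to Yars, with mitochondrial counterparts from Aars2 to Yars2. This gave 37 genes of 55487 in the deposited tables, of which 18 encode cytosolic enzymes, 17 mitochondrial enzymes and 2 (Gars and Kars) enzymes of both compartments. A filter on low counts left 36 of the 37 and 10505 genes in all; the proline enzyme Pars2, with 1.06 to 2.84 counts-per-million in the 11 libraries, did not pass it and was not tested.

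There were libraries of 4 Raptor mTOR double-knockout muscles, with both genes floxed, of 3 Raptor-knockout muscles, with Raptor floxed, and of 4 wild-type muscles. In the knockouts, Cre recombinase fused to a mutated oestrogen receptor domain was under a promoter of human skeletal actin, a gene of muscle fibres and not of the other cells of the muscle. Mice of all 3 groups, wild type included, are labelled as given tamoxifen, at an age of 3 months and in chow for 7 weeks, and the muscles were taken 7 months from its start. The labels say neither whether the wild-type mice carried Cre nor the sex of any animal. Each library was a 3′ tag library (QuantSeq 3' mRNA FWD, whose reads come from near the end of polyadenylated transcripts) made from 450 ng of total RNA. Replicates are numbered in the order of the records. The labels do not say whether each library came from a separate animal, so p-values measure the spread between these libraries, which may be technical.

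Each synthetase couples 1 amino acid to its transfer RNAs, which carry it to the ribosome. The cytosol and the mitochondrion each have their own protein synthesis, and nearly every amino acid has a pair of nuclear genes, with the mitochondrial enzyme made in the cytosol and imported. In the cytosol, several synthetases sit together in the multi-tRNA synthetase complex around the scaffold proteins Aimp1, Aimp2 and Eef1e1. Many cytosolic synthetase genes are known targets of ATF4, a transcription factor of the amino acid response whose synthesis is raised by mTOR complex 1 in cultured cells. mTOR is a kinase found in a pair of complexes, and Raptor is the subunit by which mTOR complex 1 is told from mTOR complex 2.

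ATF4 and its C/EBP partners bind a composite element, and the stretches below are shown because they hold its letters TGATGNAA (or TTNCATCA on the other strand) within the RefSeq promoter windows, GRCm38.p6, of 250 bases before to 50 bases after the gene start. Capitals mark the match, and each stretch is written 5′ to 3′ on the gene's strand. Aars holds a further match, TTTCATCA, past the gene start within chr8:111033840-111033869, which is not printed. The last stretch, in Kars, holds a match to the letters GCGC, any base, then TGCGC, which are bound by NRF1, a transcription factor of genes for mitochondrial function; it is shown because Kars had the smallest adjusted p of the 36 genes.
Gars, chr6:55037931-55038000, plus strand: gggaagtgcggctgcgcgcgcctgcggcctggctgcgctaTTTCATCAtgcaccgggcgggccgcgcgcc
Aars, chr8:111033690-111033777, plus strand: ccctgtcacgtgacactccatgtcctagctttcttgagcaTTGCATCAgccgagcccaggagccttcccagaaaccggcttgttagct
Iars, chr13:49682126-49682155, plus strand: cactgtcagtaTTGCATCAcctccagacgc
Tars, chr15:11399659-11399713, minus strand: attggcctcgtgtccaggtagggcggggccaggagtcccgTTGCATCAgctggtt
Yars, chr4:129189895-129189924, plus strand: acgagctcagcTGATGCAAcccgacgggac
Kars, chr8:112011355-112011443, minus strand: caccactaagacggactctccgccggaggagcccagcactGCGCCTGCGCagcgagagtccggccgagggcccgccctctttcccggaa

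Promoter windows were searched for 27 of the 37 genes, 11 of them cytosolic, 14 mitochondrial and 2 of both compartments. Genes on chromosome 18 (Hars, Lars, Nars and Hars2) were left out of this search. The windows of all genes were not restricted in that way. The composite element was present in 5 of the 27 (18.5%), which were the 5 genes printed above and no mitochondrial one, against 3.97% of all 32851 windows of the same length. The E-box CACGTG, which reads the same on both strands and is bound by MYC and by TFEB, was in 5 of the 27 (Aars, Farsb, Iars, Tars and Ears2; 18.5%), against 7.15% of all windows. The NRF1 letters, searched on both strands, were also in 5 of the 27 (Kars, Farsb, Tars, Iars2 and Mars2; 18.5%), against 4.60% of all windows. In Tars, an E-box is followed directly by an NRF1 match, and no printed match overlaps another motif searched. Fold changes of the genes with each motif follow further on; a match of letters is a description of the sequence only.

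The gene tables hold expected counts, which were rounded and tested with edgeR in 1 fit of all 11 libraries; a call is an adjusted p under 0.05 over all 10505 genes tested. Levels are counts-per-million scaled by TMM (CPM), log2 fold changes are given with their standard error (SE), and means with their SD over n = 4 double-knockout, n = 3 Raptor-knockout and n = 4 wild-type libraries. Library totals were 2791339 to 3536731 counts in the double knockout, 3223797 to 3764879 in the Raptor knockout and 3134575 to 6328533 in wild type. At these depths a cytosolic synthetase gene had 23 to 1100 counts in a library (median 123.5) and a mitochondrial one 3 to 313 (median 25.0), so the mitochondrial values are the less precise: their median SE was 0.24 on the log2 scale for the double knockout against wild type, against 0.16 for the cytosolic genes. Double-knockout replicates 3 and 4 were deposited apart from the other 9 libraries, under a different run name. These are called the smaller and the larger sequencing run below, by their number of libraries used here. The labels do not say what a run was. Xist, the RNA made by an inactive X chromosome, was at 95.6 to 208 CPM in double-knockout replicates 1 to 3 and at 117 CPM in wild-type replicate 3, and at 0 to 0.291 CPM in the other 7 libraries. Wild-type replicate 4 stood apart from the other wild-type libraries in several genes, and results that turn on it are given without it.

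Rptor, the gene of Raptor, was at 4.07 to 5.37 CPM in the double knockout, 3.85 to 4.99 CPM in the Raptor knockout and 8.57 to 10.6 CPM in wild type, and both knockouts were called lower. Mtor was at 31.8 to 39.5 CPM in the double knockout, 18.2 to 22.6 CPM in the Raptor knockout and 15.2 to 28.2 CPM in wild type. Double knockout below means the libraries labelled so. Mtor was called higher in them, with a log2 fold change of 0.78 (SE 0.19, edgeR adjusted p = 0.00534), where the label names a deletion. That call was lost in libraries lacking Xist (0.87), and on the deposited TPM Mtor averaged 33.0 ± 4.97 in the double knockout, 2.96 ± 0.146 in the Raptor knockout and 3.27 ± 1.26 in wild type. The call of Rptor in the double knockout was lost on TPM (-0.50 and -0.31) and in libraries lacking Xist (-1.25). The sources used here do not say where the loxP sites lie, and 3′ tags therefore do not check the deletion. Fibre markers, summed over 10 genes, were at 84720 to 101499 CPM in the double knockout, 86248 to 94487 CPM in the Raptor knockout and 101619 to 106081 CPM in wild type, so the defining markers of the labelled tissue were present in every library; 3 were called higher and 4 lower in each knockout. Fibroblast markers (8 genes) were at 1186 to 1391 CPM in the double knockout, 1064 to 1219 CPM in the Raptor knockout and 649 to 1015 CPM in wild type, with 6 and 4 of the 8 called higher in the double and the Raptor knockout. Macrophage markers (10 genes) were at 157 to 209 CPM in the double knockout, 115 to 238 CPM in the Raptor knockout and 75.8 to 131 CPM in wild type, with 5 of 9 tested called higher in each knockout. Of all genes tested, 13.0% were called higher and 13.7% lower in the double knockout, and 8.73% and 9.43% in the Raptor knockout. No endothelial marker was called in either knockout. Tissue RNA comes from all these cells, so fewer cells of a type and less RNA per cell cannot be told apart, and the part of fibroblasts and macrophages in the synthetase values was not tested.

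In wild-type muscle the cytosolic enzymes had the higher levels. On the deposited transcripts-per-million (TPM), their wild-type means ran from 3.38 to 85.6 TPM with a median of 15.01 TPM, against 0.388 to 20.1 TPM and a median of 2.28 TPM for the mitochondrial enzymes. Gars had 16.3 ± 0.820 TPM and Kars 34.5 ± 1.77 TPM in wild type. Qars, the glutamine enzyme, had the highest level at 85.6 ± 11.1 TPM, followed by the methionine enzyme Mars at 74.5 ± 8.53 TPM; these were within about 1 SD of each other. Nars (asparagine, 42.4 ± 11.5 TPM) and Eprs (the fused glutamate and proline enzyme, 36.1 ± 7.62 TPM) came next, and they too lay within their spread. The valine enzyme Vars was lowest of the cytosolic ones at 3.38 ± 1.31 TPM. Among mitochondrial enzymes, Iars2 (isoleucine) and Fars2 (phenylalanine) were the highest at 20.1 ± 2.74 and 20.1 ± 4.42 TPM, and Mars2 (methionine) was the lowest at 0.388 ± 0.106 TPM.

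The cytosolic partner was the more abundant for most amino acids in wild type: Mars was at 192 times the TPM of Mars2 and Nars at 56.9 times that of Nars2. The reverse held for isoleucine, where Iars was at 0.475 times the TPM of Iars2, and Farsa was at 0.760 times Fars2 while Farsb was at 1.44 times it. On TPM the threonine pair was close to equal, with Tars at 0.976 times Tars2. A 3′ tag library gives about 1 tag position per transcript whatever its length, so dividing by length lowers the TPM of long transcripts. Levels between genes carry that limit, and CPM, which is not divided by length, gave other ratios. In wild type Tars averaged 43.3 CPM and Tars2 9.02 CPM, and Farsa 31.0 CPM and Fars2 10.4 CPM. Tars and Farsa were thus the higher of their pairs. Mars and Mars2 were closer, at 49.4 and 5.18 CPM, while Iars stayed below Iars2, at 37.3 and 47.1 CPM. Qars, at 46.8 CPM, was below Eprs (202 CPM), Kars (78.4 CPM) and Nars (77.4 CPM).

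**Figure D1:**
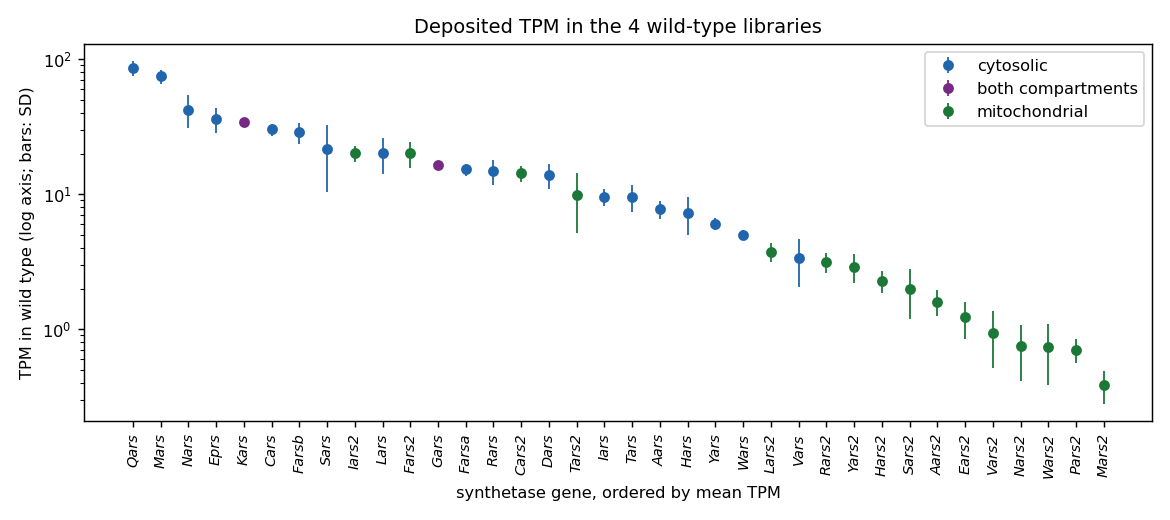
Deposited TPM of 36 of the 37 synthetase genes in wild-type muscle, on a log axis, ordered by level. Points are means and bars the SD over 4 libraries; colours give the compartment. Cytosolic enzymes fill most of the upper end, from Qars at 85.6 TPM, and the 11 lowest genes are mitochondrial.

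Comparing the double knockout with wild type asks how the charging enzymes differ when both Raptor and mTOR are targeted. Of the 36 genes tested, 4 rose (Kars, Qars, Vars and Nars2) and 2 fell (Mars and Yars), while 30 were not called. That is 16.7% of the synthetase genes, where 26.7% of all 10505 genes were called (13.0% higher and 13.7% lower), so the share of calls was below the background. With no adjustment, 9 genes had a p under 0.05. The 36 log2 fold changes ran from -0.65 to 1.02, with a median of -0.14 beside 0.02 for all genes tested. For 7 genes no double-knockout library overlapped a wild-type one (Kars, Qars and Vars above; Cars, Mars, Nars and Yars below), beside 26.8% of all genes tested.

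Kars, the lysine enzyme of both compartments (ENSMUSG00000031948, chromosome 8, 111993443 to 112011323, minus strand), had 129, 129, 112 and 144 CPM in the double knockout, 120.2, 131 and 132 CPM in the Raptor knockout, and 73.9, 75.8, 77.8 and 86.3 CPM in wild type. Every knockout library of either kind lay above every wild-type library. Its log2 fold change in the double knockout was 0.71 (SE 0.12, edgeR adjusted p = 0.000381), a 1.64-fold rise, and it was called under each of the 19 alternative settings and left-out libraries, with values from 0.66 to 0.94.

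Qars, which charges glutamine in the cytosol and has no mitochondrial partner (ENSMUSG00000032604, chromosome 9, 108507706 to 108515941, plus strand), had 69.2, 86.5, 70.2 and 60.7 CPM in the double knockout, 63.3, 64.7 and 62.8 CPM in the Raptor knockout, and 41.2, 44.7, 45.4 and 55.9 CPM in wild type. The double-knockout libraries were all above the wild-type ones, and the Raptor-knockout libraries sat close together within the double-knockout range, above wild type. It rose 1.53-fold in the double knockout, with a log2 fold change of 0.61 (SE 0.14, edgeR adjusted p = 0.00461). Among the 4 libraries lacking Xist that this contrast has, 1 of them double knockout, the log2 fold change was 0.34 and the call was lost.

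Vars, the valine enzyme of the cytosol (ENSMUSG00000007029, chromosome 17, 35000987 to 35016322, plus strand), had 13.6, 10.5, 13.3 and 15.7 CPM in the double knockout, 12.8, 11.9 and 17.9 CPM in the Raptor knockout, and 6.90, 8.22, 8.22 and 7.89 CPM in wild type. Both knockouts lay above wild type with no overlap. The log2 fold change in the double knockout was 0.76 (SE 0.20, edgeR adjusted p = 0.00928), a 1.69-fold rise from a gene with only 23 to 61 counts in a library. The call was lost within the larger sequencing run (0.62), with run as a covariate (0.62), in the libraries lacking Xist (1.01) and on TPM (0.32 with a pseudocount of 1 and 0.42 with 0.1). On the log2 scale the TPM of Vars per CPM was 0.32 lower in the double knockout than in wild type, against an SD of 0.63 between wild-type libraries.

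Nars2, the mitochondrial asparagine enzyme (ENSMUSG00000018995, chromosome 7, 96951505 to 97064758, plus strand), had 5.69, 7.27, 6.89 and 4.65 CPM in the double knockout, 8.20, 6.77 and 4.40 CPM in the Raptor knockout, and 3.22, 5.01, 2.80 and 1.58 CPM in wild type. It was the only mitochondrial enzyme called, and wild-type replicate 2 overlapped the double-knockout range. At 7 to 32 counts in a library its log2 fold change was 1.02 (SE 0.32, edgeR adjusted p = 0.0272), a 2.03-fold rise. The call was lost without double-knockout replicate 2 (0.93) or 3 (0.96), without wild-type replicate 3 (0.96) or 4 (0.81), and with run or Xist taken into account (0.55 to 1.10).

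Mars, the methionine enzyme of the cytosol (ENSMUSG00000040354, chromosome 10, 127296221 to 127311786, minus strand), had 33.8, 29.1, 29.2 and 34.0 CPM in the double knockout, 35.1, 25.4 and 36.4 CPM in the Raptor knockout, and 41.0, 54.3, 44.1 and 58.2 CPM in wild type. Every knockout library was below every wild-type library. Its log2 fold change in the double knockout was -0.65 (SE 0.16, edgeR adjusted p = 0.00753), which is 1.56-fold lower. Scaling by library totals gave -0.41 and the call was lost, as it was with Xist as a covariate (-0.55), in libraries lacking Xist (-0.61), in the larger run alone (-0.65) and on TPM with a pseudocount of 0.1 (-0.46). Its gene body overlaps the stress gene Ddit3 on the other strand, and the strand setting of the counting was not given in the sources used here; Ddit3 itself had log2 fold changes of 0.23 and 0.67 in the double and the Raptor knockout, neither called.

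Yars, the tyrosine enzyme of the cytosol (ENSMUSG00000028811, chromosome 4, 129189760 to 129219607, plus strand), had 12.6, 16.4, 11.7 and 12.5 CPM in the double knockout, 10.8, 17.9 and 14.97 CPM in the Raptor knockout, and 21.6, 17.9, 16.9 and 23.2 CPM in wild type. The double-knockout libraries lay below the wild-type ones, the nearest at 16.4 against 16.9 CPM. Its log2 fold change was -0.58 (SE 0.19, edgeR adjusted p = 0.0354), 1.49-fold lower, and 13 of the 19 alternatives lost the call, with values from -0.77 to -0.34. Those include the fits without double-knockout replicate 1 (-0.57), 3 (-0.52) or 4 (-0.54) and without wild-type replicate 1 (-0.52), 2 (-0.61) or 4 (-0.50). C77080, on the opposite strand over Yars, rose with a log2 fold change of 2.49 (SE 0.55, edgeR adjusted p = 0.00294) at 0 to 4.61 CPM, and reads of the pair cannot be told apart without the strand setting.

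**Figure D2:**
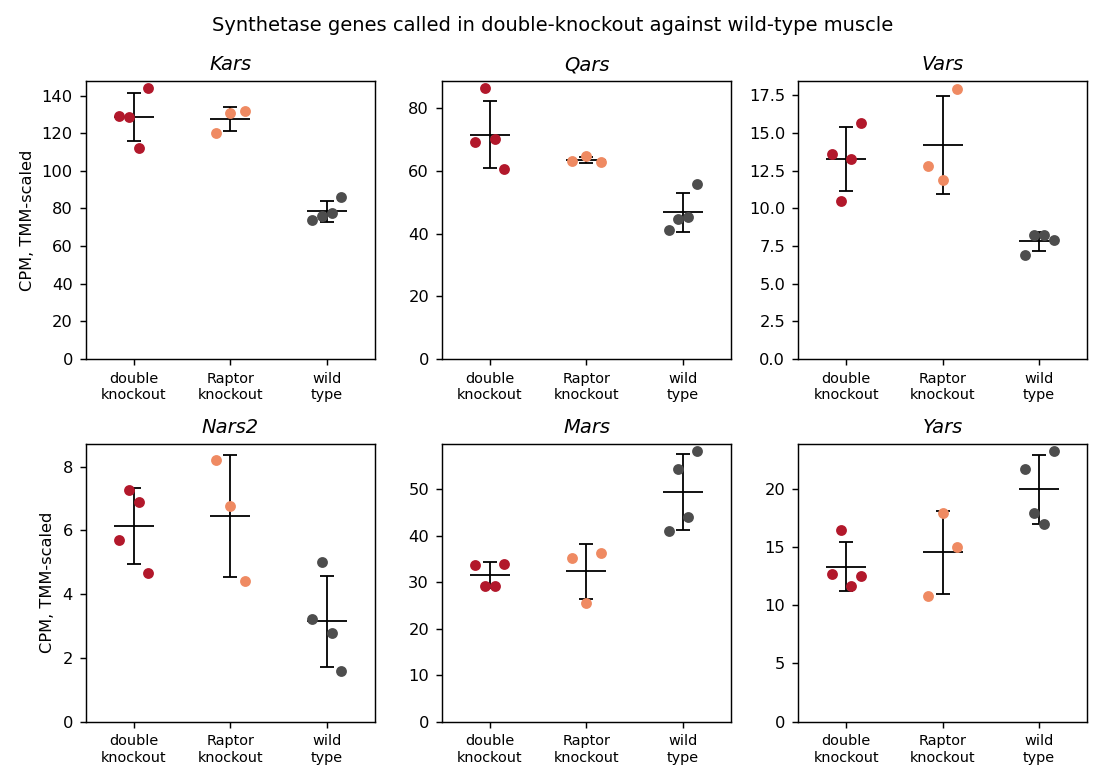
CPM of the 6 synthetase genes called between double-knockout and wild-type muscle, by library. Points are libraries, horizontal lines means and bars the SD (n = 4, 3 and 4), and each vertical axis starts at 0; Kars lies at 112 to 144 CPM in the double knockout and 73.9 to 86.3 CPM in wild type, and the Raptor knockout lies near the double knockout in each panel.

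Eprs and Nars, the uncalled cytosolic genes with the highest CPM, had negative estimates. Eprs, which charges glutamate and proline in the cytosol, had 157, 99.4, 186 and 169 CPM in the double knockout, 147, 209 and 109 CPM in the Raptor knockout, and 228, 239, 181 and 160.0 CPM in wild type. The groups overlapped, and its log2 fold change in the double knockout was -0.40 (SE 0.22, edgeR adjusted p = 0.2003). Nars, which charges asparagine in the cytosol, had 49.9, 52.3, 60.7 and 65.4 CPM in the double knockout, 44.1, 73.9 and 38.5 CPM in the Raptor knockout, and 84.9, 87.2, 68.1 and 69.2 CPM in wild type, with the double-knockout libraries below the wild-type ones and a log2 fold change of -0.44 (SE 0.19, edgeR adjusted p = 0.0962).

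Gars, the glycine enzyme of both compartments, had 46.1, 38.5, 41.6 and 50.6 CPM in the double knockout, 42.8, 30.3 and 36.7 CPM in the Raptor knockout, and 41.2, 43.3, 42.8 and 50.3 CPM in wild type. Its double-knockout and wild-type ranges covered each other, with a log2 fold change of -0.01 (SE 0.15, edgeR adjusted p = 0.980). It thus stood beside Kars, the other gene of both compartments, with a value near 0.

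Among mitochondrial enzymes, Iars2 (isoleucine) had 51.2, 52.3, 50.4 and 55.5 CPM in the double knockout, 61.3, 49.8 and 65.2 CPM in the Raptor knockout, and 42.1, 51.8, 51.5 and 42.8 CPM in wild type, with a log2 fold change in the double knockout of 0.15 (SE 0.14, edgeR adjusted p = 0.441). Lars2 (leucine) had 13.0, 16.2, 10.1 and 14.2 CPM in the double knockout, 12.8, 14.1 and 14.4 CPM in the Raptor knockout, and 14.7, 13.9, 17.1 and 16.9 CPM in wild type, with -0.24 (SE 0.18, edgeR adjusted p = 0.344). In both genes the groups overlapped.

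The mitochondrial partners of the called cytosolic enzymes were not called. Vars2 (valine) had 7.90, 7.54, 6.10 and 8.14 CPM in the double knockout, 7.95, 7.58 and 6.75 CPM in the Raptor knockout, and 3.91, 1.79, 5.10 and 7.44 CPM in wild type; wild-type replicate 4 alone lay within the double-knockout range. Its log2 fold change was 0.64 (SE 0.30, edgeR adjusted p = 0.122), and 0.94, called, without that replicate. Mars2 (methionine) had 3.79, 2.69, 5.30 and 6.10 CPM in the double knockout, 2.82, 3.79 and 5.28 CPM in the Raptor knockout, and 5.52, 6.08, 2.80 and 6.31 CPM in wild type, which overlapped throughout, with a log2 fold change of -0.17 (SE 0.33, edgeR adjusted p = 0.732). Yars2 (tyrosine) had 6.005, 8.08, 5.30 and 7.27 CPM in the double knockout, 6.67, 6.50 and 5.58 CPM in the Raptor knockout, and 3.45, 4.65, 5.43 and 6.76 CPM in wild type, again with overlap, and its log2 fold change was 0.38 (SE 0.25, edgeR adjusted p = 0.283), while that of Yars was -0.58.

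The remaining cytosolic genes had log2 fold changes in the double knockout between -0.35 (Tars, threonine) and 0.23 (Dars, aspartate), none called. The remaining mitochondrial ones ran between -0.49 (Wars2, tryptophan; SE 0.44) and 0.17 (Cars2, cysteine), again none called. The SE ran from 0.14 to 0.44 over the mitochondrial enzymes, so a log2 fold change as large as that of Kars (0.71) was not detectable at the depth of Wars2.

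The Raptor knockout against wild type, a comparison the groups allow although the design text does not name it, used the same 4 wild-type libraries. Of 36 genes, 3 rose (Kars, Vars and Nars2) and 1 fell (Mars), which is 11.1% beside 18.2% of all genes tested (8.73% higher and 9.43% lower). With no adjustment, 8 genes had a p under 0.05. No Raptor-knockout library overlapped a wild-type one for 5 genes (Kars, Qars and Vars above; Cars and Mars below), beside 27.3% of all genes tested. The log2 fold changes ran from -0.61 to 1.10 with a median of -0.15, beside 0.00 for all genes.

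Kars was 1.63-fold higher in the Raptor knockout, with a log2 fold change of 0.70 (SE 0.13, edgeR adjusted p = 0.00127), and was called under each of 18 alternatives (0.65 to 0.90). Vars was 1.81-fold higher, at 0.86 (SE 0.21, edgeR adjusted p = 0.00919); the call was lost without Raptor-knockout replicate 3 (0.66) and on TPM (0.52 and 0.65). Nars2 was at 1.10 (SE 0.34, edgeR adjusted p = 0.0341), with 9 of 18 alternatives losing the call (0.69 to 1.35 over all 18), among them the fits without Raptor-knockout replicate 1 (0.88) or 2 (1.07) and without wild-type replicate 1 (1.15), 3 (1.02) or 4 (0.89).

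Mars fell 1.52-fold in the Raptor knockout, at -0.61 (SE 0.18, edgeR adjusted p = 0.0248), and lost its call without Raptor-knockout replicate 1 (-0.67) or 2 (-0.46), without wild-type replicate 2 (-0.55), with library totals (-0.40), with only the compared groups in the fit (-0.60), in libraries lacking Xist (-0.69) and on TPM (-0.47 with either pseudocount). Qars had a log2 fold change of 0.44 (SE 0.15, edgeR adjusted p = 0.0569) and Yars -0.46 (SE 0.21, edgeR adjusted p = 0.142), so neither was called. Without wild-type replicate 4 the counts were 4 higher and 3 lower, with Vars2 (0.94) and Nars (-0.61) among those called. Of the abundant uncalled genes, Eprs had -0.38, Nars -0.57, Gars -0.28, Iars2 0.32 and Lars2 -0.20, and Mars2, the partner of Mars, had -0.36.

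**Figure D3:**
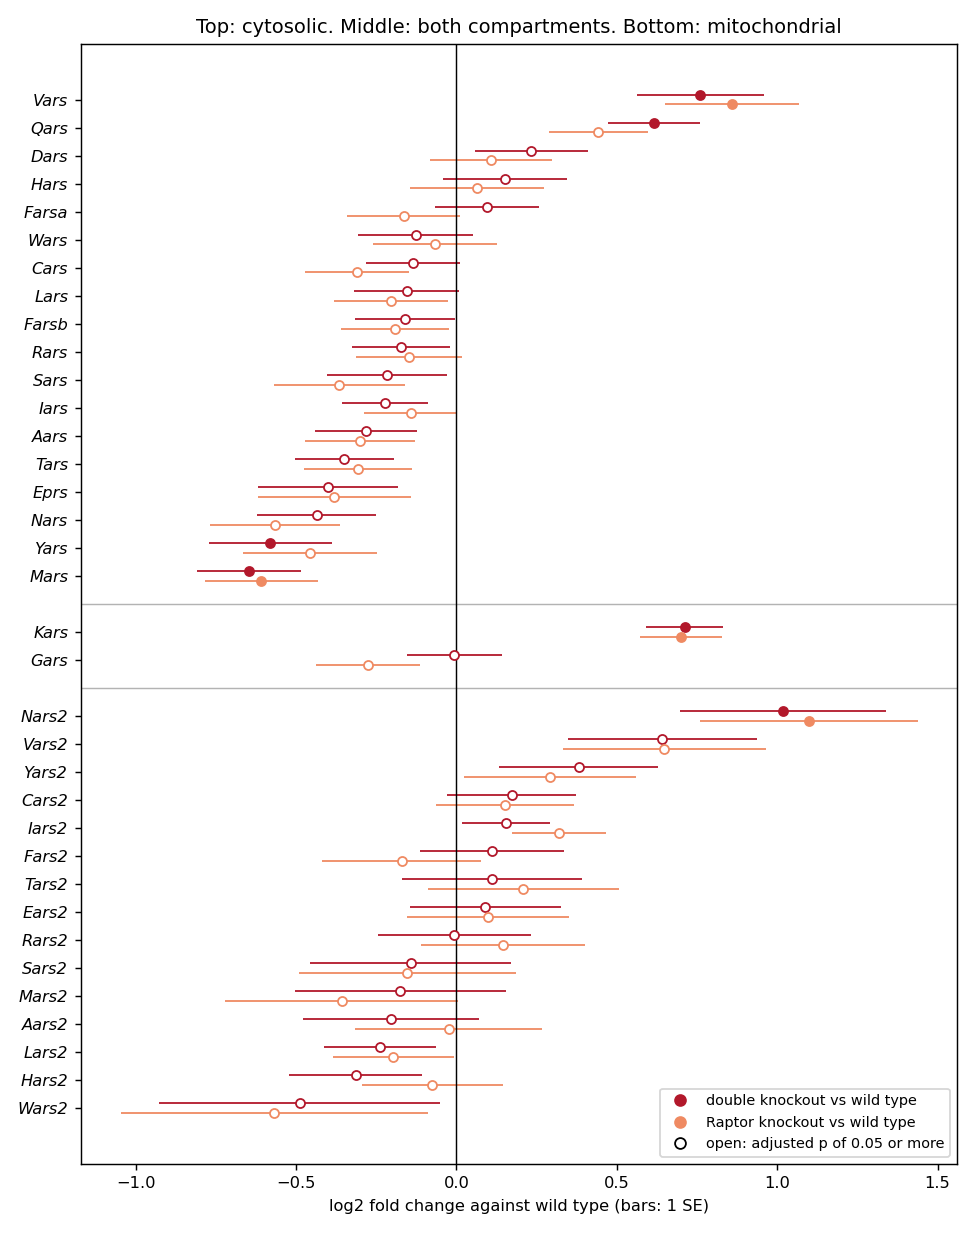
Log2 fold changes against wild type of 35 of the 36 tested synthetase genes in the double knockout (upper mark of each pair) and the Raptor knockout (lower mark), grouped by compartment; bars are 1 SE and filled marks are called. Kars stands at 0.71 and 0.70 beside Gars at -0.01 and -0.28, and 13 of the 18 cytosolic genes lie below 0 in the double knockout under TMM scaling.

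Setting the double knockout against the Raptor knockout asks what differs when mTOR is targeted beside Raptor, although Mtor had a log2 fold change of 0.80 (SE 0.20, edgeR adjusted p = 0.162) in the libraries labelled double knockout. No synthetase gene was called in edgeR, none had an unadjusted p under 0.05, and the DESeq2 Wald test called none; of all genes tested, 3 were called (0.0286%; 0.00952% higher and 0.0190% lower). The 36 log2 fold changes ran from -0.24 to 0.28, and both knockouts overlapped in all 36 genes, where 12.2% of all genes did not overlap. Kars had a log2 fold change of 0.01 (SE 0.13, edgeR adjusted p = 0.991), Eprs -0.02, Nars 0.13, Gars 0.27, Iars2 -0.17 and Lars2 -0.04. SEs of 0.13 to 0.51 limit how small a difference this comparison could show, and the absence of calls does not show that the knockouts were alike.

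Cytosolic and mitochondrial enzymes were then set side by side. Under TMM the cytosolic genes had a median log2 fold change of -0.17 in the double knockout, with 5 estimates above 0 and 13 below, and -0.20 in the Raptor knockout, with 4 above and 14 below. The mitochondrial genes had medians of 0.04 in each, with 8 above and 8 below in both. Of all genes tested, 5366 estimates were above 0 and 5139 below in the double knockout, and 5263 and 5242 in the Raptor knockout. Calls among the cytosolic genes were 2 higher and 2 lower in the double knockout (22.2%) and 1 and 1 in the Raptor knockout (11.1%). Among the mitochondrial genes they were 1 and 0 in each (6.25%). All these shares were below the 26.7% and 18.2% of all genes called in the double and the Raptor knockout. The difference between the class medians was -0.21 in the double knockout and -0.24 in the Raptor knockout, and its alternatives, library totals included, ran from -0.36 to -0.12 and from -0.39 to -0.17.

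Per library, the mean log2 CPM of the 18 cytosolic genes was 4.93 to 4.99 in the double knockout, 4.89 to 4.94 in the Raptor knockout and 5.02 to 5.14 in wild type, so every knockout library was below every wild-type one under TMM. The 16 mitochondrial genes were at 2.85 to 3.01 in the double knockout, 2.84 to 3.06 in the Raptor knockout and 2.77 to 3.04 in wild type, and these overlapped. Cytosolic minus mitochondrial is free of the scaling except through the prior count of 2. It was 1.98 to 2.12 in the double knockout, 1.83 to 2.10 in the Raptor knockout and 2.05 to 2.37 in wild type. The means were 2.04 ± 0.07, 1.97 ± 0.14 and 2.22 ± 0.13, and wild-type replicate 4 (2.05) lay within both knockout ranges. The other 3 wild-type libraries were at 2.21 to 2.37, above every knockout library. In the mitochondrial mean, too, the overlap came from wild-type replicate 4 (3.04), with the other wild-type libraries at 2.77 to 2.82, below every knockout library.

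**Figure D4:**
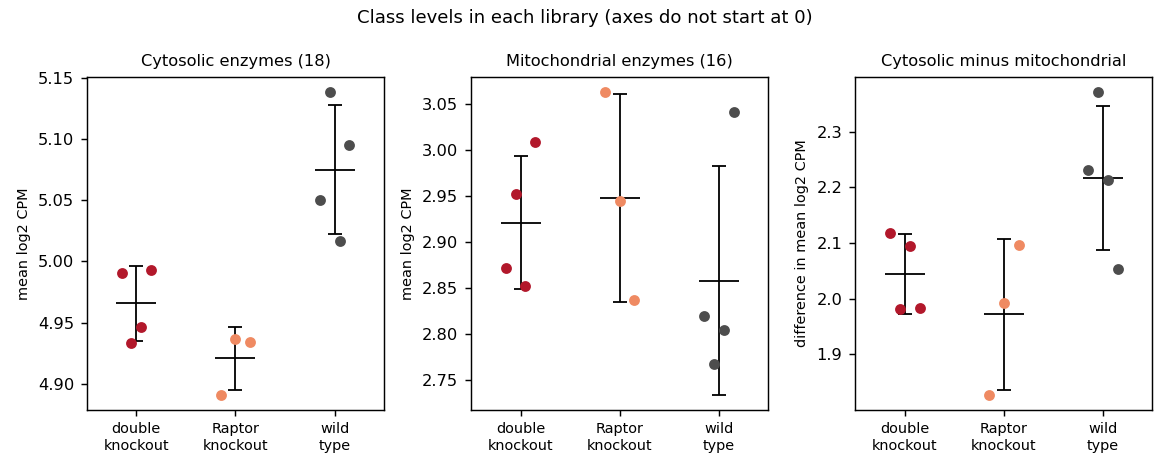
Mean log2 CPM of the 18 cytosolic and 16 mitochondrial enzymes, and their difference, in each library. Points are libraries, lines means and bars the SD (n = 4, 3 and 4), and axes do not start at 0; the cytosolic mean is lower in both knockouts under TMM (5.02 to 5.14 in wild type) but not with library totals in its place, and the difference between classes overlaps through wild-type replicate 4 (2.05), the other wild-type libraries being at 2.21 to 2.37.

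The direction of the family as a whole followed the scaling. Summed over 37 genes, TMM-scaled CPM was 974 to 1080 in the double knockout, 963 to 1055 in the Raptor knockout and 1020 to 1123 in wild type, with the knockouts on average lower. Scaled to the library total instead, the same sum was 1030 to 1179 in the double knockout, 1018 to 1077 in the Raptor knockout and 934 to 1002 in wild type, with no overlap and the knockouts higher. With library totals the median log2 fold change of all genes tested was 0.25 in the double knockout and 0.20 in the Raptor knockout, against 0.02 and 0.00 under TMM. Relative to that shift the cytosolic medians of 0.07 and 0.00 lay below the median gene, and the mitochondrial ones of 0.27 and 0.23 lay close to it. Under library totals 5 synthetase genes were called higher and 0 lower in each knockout.

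By amino acid, 17 cytosolic and mitochondrial pairs over 16 amino acids could be compared. The mitochondrial estimate was the higher in 12 of 17 pairs in the double knockout and in 12 of 17 in the Raptor knockout, with median differences of 0.17 and 0.25 on the log2 scale. Asparagine was the far end on one side, with Nars2 minus Nars at 1.45 in the double knockout and 1.66 in the Raptor knockout, followed by tyrosine (Yars2 minus Yars, 0.96 and 0.75). Among the pairs with negative differences was tryptophan (Wars2 minus Wars, -0.36 and -0.50). For valine both genes had positive estimates, and the difference was -0.12 and -0.21.

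Ratios of counts within a library are free of the scaling between libraries; the 7 computed were picked after their fold changes were seen, so they are a description with no test. The ratio of Kars to Mars was 3.81 to 4.43 in the double knockout, 3.42 to 5.14 in the Raptor knockout and 1.39 to 1.80 in wild type. Nars2 to Nars was 0.071 to 0.139 in the double knockout, 0.092 to 0.186 in the Raptor knockout and 0.023 to 0.057 in wild type. Yars2 to Yars was 0.455 to 0.581 in the double knockout, 0.364 to 0.619 in the Raptor knockout and 0.160 to 0.320 in wild type. None of these 3 ratios overlapped between a knockout and wild type. Of the other 4 computed, Kars to Eprs did not overlap either, at 0.605 to 1.295 in the double knockout, 0.625 to 1.21 in the Raptor knockout and 0.317 to 0.539 in wild type. Qars to Eprs was 0.358 to 0.870 in the double knockout, 0.309 to 0.578 in the Raptor knockout and 0.181 to 0.349 in wild type, with overlap in the Raptor knockout through wild-type replicate 4. Mars2 to Mars (0.093 to 0.182 in the double knockout, 0.080 to 0.149 in the Raptor knockout and 0.063 to 0.135 in wild type) and Vars2 to Vars (0.460 to 0.718, 0.377 to 0.636 and 0.217 to 0.943 in the same order) overlapped in both comparisons.

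**Figure D5:**
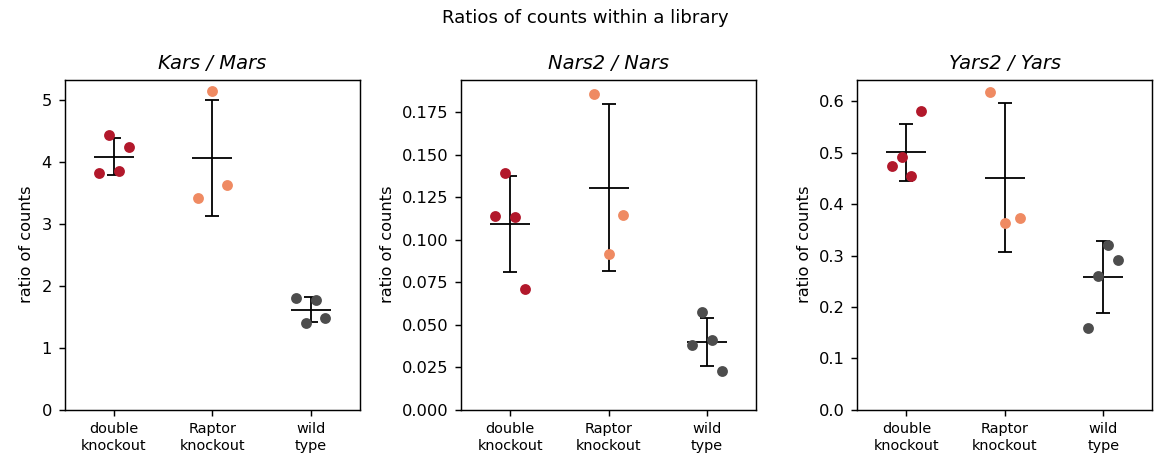
Ratios of counts within each library for Kars to Mars, Nars2 to Nars and Yars2 to Yars. Points are libraries, lines means and bars the SD (n = 4, 3 and 4), and axes start at 0; for Kars to Mars the double-knockout libraries sit at 3.81 to 4.43 and the wild-type libraries at 1.39 to 1.80.

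The multi-tRNA synthetase complex holds 8 of these genes (Dars, Eprs, Iars, Kars, Lars, Mars, Qars and Rars). In the double knockout Kars and Qars rose and Mars fell, and in the Raptor knockout Kars rose and Mars fell, beside 26.7% and 18.2% of all genes called, about as many higher as lower. The median log2 fold change of the 8 was -0.16 and -0.14. Of the 3 scaffold genes, Aimp2 averaged 94.5 ± 10.2 CPM in the double knockout, 101 ± 20.9 CPM in the Raptor knockout and 163 ± 78.3 CPM in wild type. Its log2 fold change in the double knockout was -0.78 (SE 0.26, edgeR adjusted p = 0.0376), with wild-type replicate 4 at 279 CPM and the other wild-type libraries at 113 to 133 CPM. Without that replicate it was -0.39 and still called, while leaving out any 1 of the 4 double-knockout libraries ended the call (-0.84 to -0.72). It was also ended with library totals (-0.53), with no filter (-0.83), with run or Xist taken into account (-0.93 to -0.65) and on TPM (-0.53 and -0.52). In the Raptor knockout Aimp2 had -0.68 (SE 0.28, edgeR adjusted p = 0.110), and Aimp1, at 100.1 to 119 CPM on average over the 3 groups, had -0.15 and -0.25, neither called. Eef1e1 was not called in either.

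Other genes of tRNA charging, outside the synthetase symbols, were counted from a list of 14, of which 13 were tested. In the double knockout 1 rose and 3 fell (30.8%), and in the Raptor knockout 2 fell (15.4%), shares near the 26.7% and 18.2% of all genes called. Tarsl2, a further cytosolic threonine enzyme, averaged 23.5 ± 2.89 CPM in the double knockout, 27.2 ± 2.44 CPM in the Raptor knockout and 43.8 ± 2.79 CPM in wild type. It fell in both, with log2 fold changes of -0.90 (SE 0.14, edgeR adjusted p = 0.000200) and -0.69 (SE 0.15, edgeR adjusted p = 0.00502); every knockout library was below every wild-type one, and the call in the double knockout was lost in libraries lacking Xist (-0.72).

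Pstk, the kinase that acts on seryl-tRNA on the way to selenocysteine, fell in the double knockout at -0.62 (SE 0.16, edgeR adjusted p = 0.00949). That call was lost with library totals (-0.39), in the larger run alone (-0.63), on TPM (-0.39 and -0.40), with Xist as a covariate (-0.57) and in libraries lacking Xist (-0.54). Prorsd1, a relative of the editing domain of prolyl-tRNA synthetase, fell in both at -0.86 (SE 0.29, edgeR adjusted p = 0.0383) and -0.98 (SE 0.31, edgeR adjusted p = 0.0451), although leaving out any 1 library but double-knockout replicate 4 ended the call in the double knockout (-0.94 to -0.69), and any 1 but Raptor-knockout replicate 2 ended it in the Raptor knockout (-1.05 to -0.74). Library totals (-0.64 in the double knockout and -0.78 in the Raptor knockout), TPM (-0.75 and -0.73, and -0.999 and -0.96) and the libraries lacking Xist (-0.36 and -1.04) also ended both calls of Prorsd1, and Xist as a covariate that in the double knockout (-0.66). Gatb, a subunit of the amidotransferase that makes mitochondrial glutaminyl-tRNA in place of a mitochondrial glutamine synthetase, rose in the double knockout at 1.13 (SE 0.28, edgeR adjusted p = 0.00705), with 4.23 ± 1.40 CPM in wild type. The Gatb call was lost in the larger run alone (1.02) and in libraries lacking Xist (1.51). The other subunits of that enzyme, Qrsl1 and Gatc, had -0.35 and -0.04, not called.

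Of 11 mitochondrial translation factors, 1 fell in the double knockout (Gfm2, a recycling factor, -0.45 (SE 0.15, edgeR adjusted p = 0.0384); lost under 15 of 19 alternatives) and 0 were called in the Raptor knockout, where 0 had an unadjusted p under 0.05. The most abundant of them, Lrpprc and Ptcd3, had -0.02 and -0.03 there. The share of the list called was 9.09% in the double knockout, beside 26.7% of all genes. In the Raptor knockout it was 0%, beside 18.2%, so both shares were below the background.

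The ATF4 list of 30 genes of amino acid metabolism and the stress response had 16 tested. In the double knockout 1 rose and 5 fell (37.5%, beside 26.7% of all genes), and in the Raptor knockout 0 rose and 4 fell (25.0%, beside 18.2% of all genes). Atf4 itself averaged 152 ± 14.4 CPM in the double knockout, 145 ± 8.57 CPM in the Raptor knockout and 130.4 ± 11.2 CPM in wild type, not called, with log2 fold changes of 0.22 and 0.15. Gpt2, an alanine aminotransferase, averaged 23.6 ± 7.93 CPM in the double knockout, 16.2 ± 0.462 CPM in the Raptor knockout and 113 ± 18.04 CPM in wild type, with log2 fold changes of -2.26 (SE 0.20, edgeR adjusted p = 1.28e-06) and -2.80 (SE 0.23, edgeR adjusted p = 1.47e-06).

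Cebpg, a partner of ATF4, fell at -0.86 (SE 0.19, edgeR adjusted p = 0.00350) in the double knockout and -0.71 (SE 0.21, edgeR adjusted p = 0.0275) in the Raptor knockout. Vldlr, a lipoprotein receptor, fell at -0.98 (SE 0.22, edgeR adjusted p = 0.00378) and -0.90 (SE 0.24, edgeR adjusted p = 0.0168). In the Raptor knockout both calls were lost without Raptor-knockout replicate 1 or 3 or wild-type replicate 1 or 2, with Cebpg at -0.71 to -0.57 and Vldlr at -0.87 to -0.75. Both were also lost in the Raptor knockout on TPM (-0.57 and -0.50 for Cebpg, -0.85 and -0.81 for Vldlr), and Cebpg with library totals (-0.52), with only the compared groups in the fit (-0.70) and in libraries lacking Xist (-0.75). In the double knockout both calls were lost on TPM (-0.63 and -0.55 for Cebpg, -0.82 and -0.78 for Vldlr) and in libraries lacking Xist (-0.69 for Cebpg and -0.82 for Vldlr). Chac1, which breaks down glutathione, fell at -1.55 (SE 0.44, edgeR adjusted p = 0.0208) and -2.28 (SE 0.52, edgeR adjusted p = 0.00955). Of 19 alternatives, 11 ended the call of Chac1 in the double knockout (-1.79 to -1.12 over all 19), among them the fits without double-knockout replicate 1 (-1.56), 2 (-1.51) or 4 (-1.52) and without wild-type replicate 1 (-1.51). The amino acid transporter Slc38a2 averaged 206 ± 36.1 CPM in the double knockout, 111 ± 9.86 CPM in the Raptor knockout and 98.4 ± 21.1 CPM in wild type; it rose in the double knockout at 1.06 (SE 0.17, edgeR adjusted p = 0.000197) and had 0.18 (SE 0.18, edgeR adjusted p = 0.539) in the Raptor knockout, where the difference between the knockouts was 0.89 (SE 0.18, edgeR adjusted p = 0.105). In libraries lacking Xist the call of Slc38a2 was lost (0.89). Asns and Trib3, both commonly used readouts of ATF4, were under the filter on low counts in these muscles.

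The 5 synthetase genes with the composite element near their start had log2 fold changes in the double knockout of -0.01 (Gars), -0.28 (Aars), -0.22 (Iars), -0.35 (Tars) and -0.58 (Yars), and in the Raptor knockout of -0.28, -0.30, -0.14, -0.31 and -0.46 in the same order. Yars was called in the double knockout and none of them in the Raptor knockout. Genes with the NRF1 letters had 0.71 (Kars), -0.16 (Farsb), -0.35 (Tars), 0.15 (Iars2) and -0.17 (Mars2) in the double knockout and 0.70, -0.19, -0.31, 0.32 and -0.36 in the Raptor knockout in the same order, of which Kars was called in both. Of the E-box genes, Ears2 (the mitochondrial glutamate enzyme) had 0.09 and 0.10, and Aars, Iars, Tars and Farsb are given above. None of the 5 was called in either knockout. With 5 genes for each motif, these counts of calls do not set them apart from all genes tested. Of those, 26.7% were called in the double knockout and 18.2% in the Raptor knockout.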

How the data were processed

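Gene tables of 11 gastrocnemius 3′ tag libraries were used, grouped by the genotype label. The deposited values are expected counts per gene and, in a table of all libraries, TPM; per the submitters' processing notes the tools were fastp 0.20.0, STAR 2.7.0 and RSEM 1.3.3 with GRCm38 (mm10). The annotation release, strand setting and filters are not given in the sources used here. A further 6 columns carry no label of these samples and were left out. GENCODE M21 gave names, biotypes and positions (55227 of 55487 gene IDs matched), and RefSeq the promoters.

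Expected counts (2.25% of values not whole) were rounded, which moved no library total by more than 30.2. In R 4.3.3, edgeR 4.0.16 was run with filterByExpr by group, TMM and 1 robust quasi-likelihood fit over all libraries (8 residual degrees of freedom), two-sided, with Benjamini-Hochberg adjustment over the 10505 genes tested in each contrast. The SE is the log2 fold change over the square root of F. Mean log2 CPM used a prior count of 2. The script was tested on simulated counts. Alternatives were DESeq2 1.42.0 size factors, library totals, no filter, the compared groups alone, sequencing run or Xist (log2 CPM) as a covariate, the larger run alone, the 7 libraries with Xist under 10 CPM, the DESeq2 Wald test, limma 3.58.1 on log2(TPM + 1) and log2(TPM + 0.1) over 10342 genes with a mean of at least 1 TPM, and each library left out. With only 1 double-knockout library lacking Xist, that library is assumed to vary like the others.

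The members and gene lists were chosen with earlier results of these data known. Named with values were every called member, the 2 uncalled members of each compartment with the highest CPM, the mitochondrial partners of called cytosolic enzymes, and from each further list up to 4 called genes, or the 2 of highest CPM where none was called; other genes named were chosen after their values were seen. Counting error alone limits low counts, and all 3 contrasts share libraries. The values of 1 member are not reported here; it stays in the fit and in the counts and medians.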

Additional observations from a re-analysis of the deposited data

Results flagged for a closer look

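In 5 of the 74 sets of 4 libraries examined (37 genes in the double knockout and in wild type), 1 library lay far from the other 3 by Dixon's gap-to-range criterion; chance flags about 1 in 20 such sets. Of these, 3 were in wild-type replicate 4. There Farsb, a subunit of the cytosolic phenylalanine enzyme, was at 80.02 CPM, where the other wild-type libraries were at 51.1 to 53.6 CPM. Aars2, the mitochondrial alanine enzyme, was at 7.66 CPM there, where the others were at 4.60 to 5.10 CPM. Sars2, the mitochondrial serine enzyme, was at 7.21 CPM, where the others were at 2.96 to 3.58 CPM. Rars, the cytosolic arginine enzyme, was at 26.0 CPM in double-knockout replicate 3, a library of the smaller run, where the other double-knockout libraries were at 32.3 to 33.4 CPM. Wars, the cytosolic tryptophan enzyme, was at 12.1 CPM in double-knockout replicate 2, where the others were at 9.17 to 9.54 CPM. None of these 5 genes was called in any comparison.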

How the results depend on the processing

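No paired analysis was possible because the labels give no replicate numbers. Counts of synthetase genes called in the double knockout (4 higher, 2 lower) and the Raptor knockout (3 higher, 1 lower) were within 1.5 times these except as follows. With library totals they were 5 and 0 in each knockout; with TPM 3 and 1 (pseudocount 1) or 3 and 0 (0.1) in the double knockout and 0 lower in the Raptor knockout; with no filter 2 lower in the Raptor knockout; with only the compared groups 0 lower there. Run as a covariate gave 2 and 1 in the double knockout, the larger run alone 2 and 0, and Xist as a covariate 0 lower there and 2 lower in the Raptor knockout. In libraries lacking Xist 1 rose and 0 fell in the double knockout, 0 fell in the Raptor knockout, and cytosolic minus mitochondrial medians were -0.36 in the double knockout, beside -0.21. With each library left out in turn, the double knockout had 3 to 4 higher and 1 to 2 lower, the Raptor knockout 2 to 4 and 0 to 3, and cytosolic minus mitochondrial medians ran from -0.31 to -0.12 and from -0.39 to -0.17. No synthetase gene was called between the knockouts under any alternative.

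Reversed log2 fold changes all belonged to genes that were not called. In the double knockout against wild type, Gars (-0.01) was 0.077 with Xist as a covariate, 0.23 with library totals, 0.15 and 0.14 on TPM with pseudocounts of 0.1 and 1, 0.15 in libraries lacking Xist and 0.00601 with only the compared groups, and -0.065 to 0.059 with libraries left out. Mars2 (-0.17) was 0.275, 0.057 and 0.011 with the Xist covariate, library totals and libraries lacking Xist, and -0.43 to 0.014 with libraries left out. In the Raptor knockout against wild type, Lrpprc (-0.02) was 0.20 with library totals and 0.19 and 0.18 on TPM with 0.1 and 1 (-0.24 to 0.39 with libraries left out), and Ptcd3 (-0.03) was 0.17, 0.070 and 0.068 (-0.055 to 0.012). Between the knockouts Eprs was 0.10 with the Xist covariate, 0.020 with library totals, 0.056 and 0.055 on TPM with 0.1 and 1, and 0.135 lacking Xist; Vldlr was 0.35, 0.033, 0.031 and 0.26 with the Xist covariate, on TPM with 0.1 and 1, and lacking Xist. Atf4 was -0.028 and Aimp2 0.072 with the Xist covariate, and Atf4 was -0.12, Lars2 0.060 and Tarsl2 0.015 lacking Xist. With run as a covariate Nars was -0.030, Lars2 0.087 and Aimp1 -0.23, and in the larger run alone they were -0.031, 0.086 and -0.23. With libraries left out the ranges between the knockouts were -0.22 to 0.26 (Eprs), -0.23 to 0.094 (Vldlr), -0.15 to 0.075 (Lars2), -0.097 to 0.44 (Aimp1), -0.047 to 0.070 (Kars), -0.050 to 0.47 (Nars) and -0.25 to 0.032 (Aimp2). The cause of these changes was not tested.

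Over all genes, the double knockout had 1367 higher and 1435 lower under TMM, 2421 and 844 with library totals, 1649 and 720 on TPM + 0.1, 876 and 958 with the Xist covariate, and 238 and 234 in libraries lacking Xist, where 1 double-knockout library remains; the Raptor knockout had 917 and 991, then 1638 and 573 with library totals, 921 and 460 on TPM + 0.1, and 556 and 584 without Raptor-knockout replicate 1. Between the knockouts 3 genes were called, and with no filter 44 and 61, with only the compared groups 65 and 92, and with the DESeq2 Wald test 54 and 48. Depth limits the mitochondrial enzymes most, at a median of 25.0 counts in a library.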

Other observations

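Some pairs of synthetase genes share a chromosome (GRCm38, GENCODE M21), which the choice of members did not use. Whether other genes lie between the members of a pair was not examined. Eprs (chromosome 1, 185363044 to 185428360, plus strand) and Iars2 (185284726 to 185329396, minus strand) have starts on facing sides and do not overlap. Their log2 fold changes were -0.40 and 0.15 in the double knockout and -0.38 and 0.32 in the Raptor knockout, none called. Hars and Hars2, the cytosolic and mitochondrial histidine genes, overlap at their starts on chromosome 18 and had 0.15 and -0.31 in the double knockout and 0.06 and -0.08 in the Raptor knockout, again not called. Vars (35000987 to 35016322) and Vars2 (35655634 to 35667592), the cytosolic and mitochondrial valine genes, are both on chromosome 17 and had 0.76 and 0.64 in the double knockout and 0.86 and 0.65 in the Raptor knockout, of which the values of Vars were called.

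Phenylalanyl-tRNA synthetase of the cytosol is built from equal numbers of Farsa and Farsb subunits. Farsa averaged 33.2 ± 5.10 CPM in the double knockout, 27.8 ± 4.88 CPM in the Raptor knockout and 31.0 ± 3.57 CPM in wild type, and Farsb averaged 53.0 ± 3.41 CPM in the double knockout, 51.9 ± 3.91 CPM in the Raptor knockout and 59.2 ± 13.9 CPM in wild type (SD, n = 4, 3 and 4). In the double knockout their log2 fold changes were 0.09 (SE 0.16, edgeR adjusted p = 0.702) and -0.16 (SE 0.16, edgeR adjusted p = 0.481), and in the Raptor knockout -0.16 and -0.19; neither was called in either.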
